A study of Mus musculus with 8 samples.

Results

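The IGF1 and insulin signalling genes described here are 10 genes taken by symbol from a deposited table of 17492 genes: Igf1, Igf1r, Igf2r, Insr, Irs1, Irs2, Igfbp4, Pik3r1, Akt1 and Foxo1. All 10 have a row, and 9 passed the filter on low counts. Irs1 did not. RNA was sequenced from macrophages grown out of C57BL/6 mouse bone marrow, in 4 control libraries from normal medium and 4 libraries from medium lacking serine and glycine. Both groups are of the same strain and cell type, and the labels name no other agent or allele. They give no age, no time without the amino acids and no stimulation. They also do not say whether the libraries of a group came from separate cultures or animals, so p-values measure the spread between these libraries, which may be technical. The question behind the comparison, per the series title, is how serine metabolism bears on macrophage polarization through IGF1 and p38.

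IGF1 is a secreted growth factor, made in macrophages as well as in liver and stromal cells. It binds the receptor tyrosine kinase IGF1R, and insulin binds the closely related INSR. Both receptors phosphorylate the adaptors IRS1 and IRS2, which recruit PI3-kinase through its p85 regulatory subunit and so activate AKT. AKT phosphorylates FOXO factors and keeps them out of the nucleus, and INSR and IRS2 are themselves known FOXO target genes, so that the pathway feeds back on its own receptors. IGF2R is no signalling receptor of this kind: it carries mannose 6-phosphate-tagged enzymes to lysosomes and removes IGF2. IGFBP4 binds IGFs outside the cell and limits their access to the receptor.

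All 10 genes are annotated as protein-coding by RefSeq on GRCm38.p6, the build that the submitters' processing notes name. Igf1 (Entrez 16000) lies on chromosome 10 at 87858265 to 87937047, Igf2r (16004) on chromosome 17 at 12682406 to 12769706, Irs2 (384783) on chromosome 8 at 10984681 to 11008929 and Pik3r1 (18708) on chromosome 13 at 101680761 to 101768217. Insr (16337) lies on chromosome 8 at 3150922 to 3279649. RefSeq windows upstream of a start site were matched for 9 of the 10 genes, Insr not among them. The 250 bases before the start are printed for the genes whose transcripts rose (Igf1, Igf2r, Irs2) and for Pik3r1, which fell (the outer of its 2 listed starts), so that their upstream sequence can be set beside their change. The motifs searched, on both strands and chosen with earlier results of these data known, were the E-box CACGTG, its extended form TCACGTGA, which contains it and is the letter core recognised by TFEB and TFE3, the FOXO motif TGTTTAC, and the core TGTTTTG of the insulin response element. Capitals mark matches.
Igf1, chr10:87860861-87861110, plus strand: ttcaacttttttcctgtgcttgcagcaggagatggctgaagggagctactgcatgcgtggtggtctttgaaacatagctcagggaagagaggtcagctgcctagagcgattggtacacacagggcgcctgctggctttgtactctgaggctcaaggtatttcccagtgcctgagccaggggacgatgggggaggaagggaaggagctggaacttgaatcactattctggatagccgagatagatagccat
Igf2r, chr17:12769707-12769956, minus strand: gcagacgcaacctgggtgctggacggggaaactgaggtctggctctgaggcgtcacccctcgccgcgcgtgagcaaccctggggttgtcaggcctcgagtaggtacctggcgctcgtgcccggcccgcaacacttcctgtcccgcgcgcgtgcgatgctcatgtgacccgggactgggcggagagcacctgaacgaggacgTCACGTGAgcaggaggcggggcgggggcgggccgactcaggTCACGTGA
Irs2, chr8:11008930-11009179, minus strand: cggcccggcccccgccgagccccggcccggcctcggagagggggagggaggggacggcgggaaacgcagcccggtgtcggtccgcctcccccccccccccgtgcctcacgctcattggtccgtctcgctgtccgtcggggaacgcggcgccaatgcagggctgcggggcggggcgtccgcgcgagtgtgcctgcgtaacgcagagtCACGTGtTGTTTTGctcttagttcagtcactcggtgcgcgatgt
Pik3r1, chr13:101768218-101768467, minus strand: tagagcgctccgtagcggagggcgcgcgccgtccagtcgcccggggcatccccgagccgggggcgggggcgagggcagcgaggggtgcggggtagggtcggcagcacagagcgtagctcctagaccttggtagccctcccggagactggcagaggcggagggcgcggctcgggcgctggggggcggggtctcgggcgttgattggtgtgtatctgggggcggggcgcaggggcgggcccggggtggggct
The Igf2r window held the extended E-box at 2 places, beginning 49 and 8 bases before the start. Of 12027 such windows of tested genes, 1.52% held the extended E-box at least once, and 8 windows (0.0665%) held it 2 or more times. The cut of 2 copies is the number that the Igf2r window held and was counted for no other motif. That share is therefore a description only. The Irs2 window held an E-box beginning 44 bases before the start and, just after it, an insulin response element core beginning at 37 bases. The Irs1 window had the same pairing, with the E-box at 115 bases and the overlapping core at 111 bases, and a second core at 32 bases. Among windows of tested genes, 8.42% held the E-box and 3.90% that core. The window printed for Igf1 lies inside the span of the gene, which has a further upstream 5' end, and held none of the motifs. Among the windows of these genes, the FOXO motif TGTTTAC was found in 1 of Akt1, and in 2.18% of windows of tested genes. Matches to the insulin response element core were counted apart from it. These are matches of letters, not measured binding.

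Library totals lay between 17565291 and 18201599 estimated counts. CPM below are counts scaled to a common library total after edgeR's TMM adjustment of each library's total. No library looked like a copy of another of its group (chi-square of counts per degree of freedom 1.42 to 3.59 between pairs), and the 3 pairs holding replicate 4 of the serine/glycine-free group differed most (2.90 to 3.59). The macrophage label was checked against 10 markers, all of them detected, with summed levels of 25905 to 28018 TPM over the 8 libraries (TPM is scaled by transcript length and to the same sum in each library). Of these markers 4 were higher and 5 lower without serine and glycine. Summed markers of fibroblasts and stromal cells, another source of Igf1 and Igfbp4, lay between 0.48 and 0.87 TPM over 7 genes, none of which passed the filter. The summed levels of 6 neutrophil markers went from 5.07 to 7.39 TPM in controls to 12.9 to 15.3 TPM, carried by S100a8, while 5 B cell markers (73.4 to 84.2 against 52.6 to 61.8 TPM) and 4 endothelial markers (36.8 to 40.9 against 29.1 to 31.4 TPM) were lower, carried by Cd79b and Pecam1. Summed T cell, dendritic cell, mast cell, erythroid and megakaryocyte markers stayed at or below 4.45 TPM. No marker with a row was at 0 in every library. The part of these shifts in the results was not tested, and in bulk RNA fewer cells of a type and less RNA per cell cannot be told apart.

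Without serine and glycine, transcripts of the ligand Igf1, of the lysosomal sorting receptor Igf2r and of the adaptor Irs2 rose, and those of the insulin receptor Insr and of the PI3-kinase regulatory subunit Pik3r1 fell. Igf1r, Igfbp4, Akt1 and Foxo1 did not pass the threshold, an adjusted p of 0.05 in edgeR's quasi-likelihood test over all 11700 genes tested. Of the 9 tested genes 3 thus rose and 2 fell. Over all genes tested, 33.2% passed in either direction, 15.9% higher and 17.3% lower. The groups did not overlap for 4 of the 9 genes, against 30.6% of all genes tested. The median log2 change of the 9 genes was 0.027, against 0.0074 over all genes, and the median size of the change regardless of sign was 0.13 against 0.10.

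**Figure D1:**
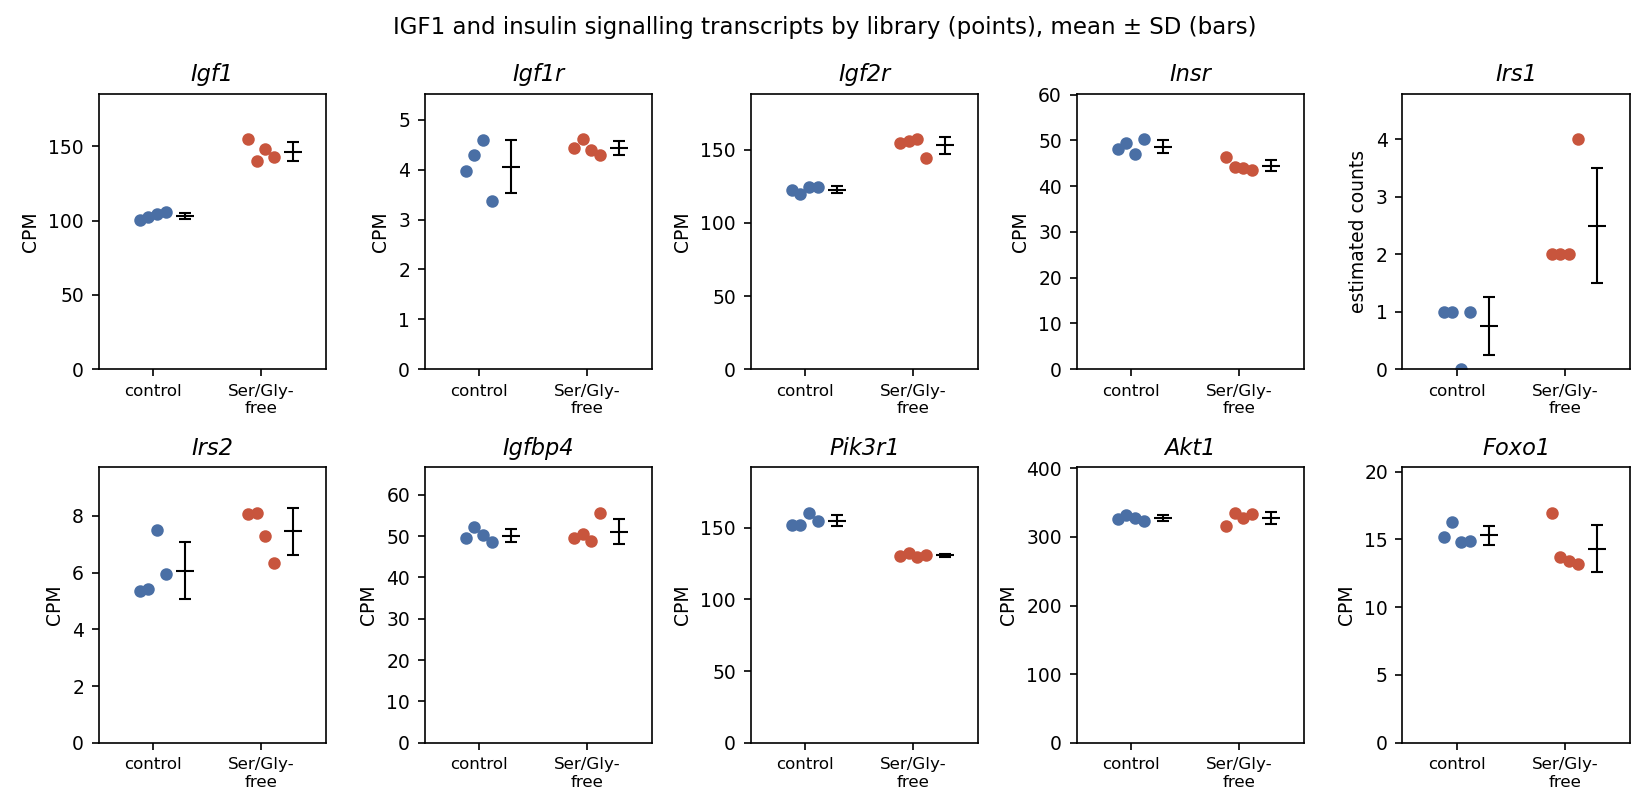
Level of each gene in each library, in CPM (counts scaled to a common library total after TMM adjustment) or, for Irs1, in estimated counts. Blue points are control and red points serine/glycine-free libraries, in replicate order, and bars give the mean ± SD (n = 4). Igf1 and Igf2r lie higher and Pik3r1 and Insr lower without serine and glycine with no overlap, while Irs2 overlaps.

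Among the ligand and its binding protein, Igf1 stood at 101, 102, 104 and 106 CPM in control replicates 1 to 4 and at 155, 140.2, 148 and 143 CPM in serine/glycine-free replicates 1 to 4. Every serine/glycine-free library was above every control library. The log2 change of 0.50 (95% interval 0.44 to 0.57, adjusted p = 7.1e-17, edgeR quasi-likelihood) ranked 93rd by p among the 11700 genes, and 2.31% of genes averaging 5 CPM or more changed by more. Igfbp4, whose protein sequesters IGFs, stood at 49.5, 52.2, 50.3 and 48.6 CPM in controls and at 49.5, 50.5, 48.8 and 55.6 CPM without serine and glycine. The groups overlapped, with replicate 4 of the serine/glycine-free group the highest library. The log2 change of Igfbp4 was 0.027 (95% interval -0.061 to 0.11, adjusted p = 0.685), so that the interval held changes of at most 1.08-fold upward.

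Among the receptors, Igf2r went from 122, 119.7, 125 and 124 CPM in controls to 155, 156, 157 and 144 CPM. Replicate 4 was the lowest of the serine/glycine-free libraries and still above all controls. The log2 change was 0.32 (95% interval 0.26 to 0.38, adjusted p = 1.9e-11). Insr, the insulin receptor, went the other way, from 48.1, 49.3, 46.9 and 50.2 CPM to 46.3, 44.1, 44.0 and 43.6 CPM, with the highest serine/glycine-free library just under the lowest control. Its log2 change was -0.13 (95% interval -0.21 to -0.044, adjusted p = 0.0147). That call was lost without control replicate 4 (adjusted p = 0.0552), on log2(TPM + 1) values (adjusted p = 0.0656) and after correction for each library's trend with transcript length (log2 change -0.051, adjusted p = 0.378). Igf1r, the receptor of IGF1, was low, at 3.97, 4.30, 4.60 and 3.38 CPM in controls and 4.44, 4.61, 4.40 and 4.29 CPM without serine and glycine. The groups overlapped, and the 95% interval of its log2 change, -0.12 to 0.37, held both no change and a rise of up to 1.29-fold (adjusted p = 0.461).

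Of the 2 adaptor genes, only Irs2 was expressed at a level that could be tested. Irs2 had 96, 98, 134 and 106 estimated counts in controls and 147, 146, 131 and 111 without serine and glycine. Control replicate 3 lay above serine/glycine-free replicates 3 and 4, so the groups overlapped. The log2 change of 0.30 (95% interval 0.083 to 0.52, adjusted p = 0.0272) rested on few counts. It did not hold on 7 of 8 libraries in 5 cases (leaving out serine/glycine-free replicate 1 or 2, control replicates 1, 2 or 4), with adjusted p up to 0.104 without control replicate 1. It was also lost with DESeq2 (adjusted p = 0.0900) and on log2(TPM + 1) values (adjusted p = 0.124). Irs1 had 1, 1, 0 and 1 estimated counts in controls and 2, 2, 2 and 4 without serine and glycine. Summed, that is 3 against 10 counts, a ratio of 3.35 with an exact 95% interval of 0.863 to 18.9 that covers counting error only, so no difference was detectable at this depth.

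Downstream of the receptors, Pik3r1, which encodes the p85 alpha, p55 alpha and p50 alpha regulatory subunits, stood at 152, 152, 160.3 and 154 CPM in controls and at 130.2, 132, 129.6 and 130.7 CPM without serine and glycine. All 4 serine/glycine-free libraries lay below all controls. The log2 change was -0.24 (95% interval -0.30 to -0.18, adjusted p = 4.6e-09). Akt1, the most abundant of the 10 transcripts, stood at 326, 333, 328 and 323 CPM in controls and at 316, 335, 328 and 333 CPM, and the groups overlapped. Its log2 change was 0.0011 with the 95% interval from -0.051 to 0.053 (adjusted p = 0.980), which leaves at most a 1.04-fold difference either way. Foxo1 stood at 15.2, 16.3, 14.8 and 14.9 CPM in controls and at 16.9, 13.7, 13.4 and 13.2 CPM without serine and glycine. Replicate 1 was the highest and the other 3 were the lowest of all 8 libraries, and the log2 change of -0.093 (95% interval -0.24 to 0.054) did not pass (adjusted p = 0.352). Without that replicate it was -0.18, still short of the threshold (adjusted p = 0.0529). All counts of these 10 genes were whole numbers in all 8 libraries, so no reads were split between them and other loci in the deposited estimates.

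**Figure D2:**
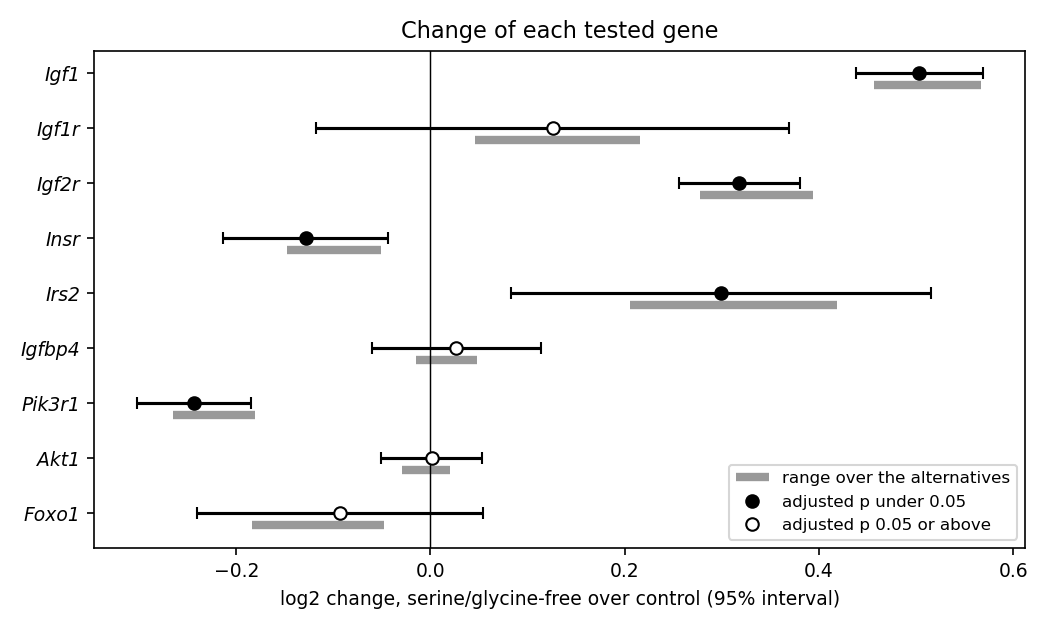
Log2 change of each tested gene, serine/glycine-free over control, with its 95% interval (points with bars; filled where the adjusted p is under 0.05) and the range of the change over the alternatives tried (grey). Igf1, Igf2r and Pik3r1 kept clear of 0 throughout, and Insr and Irs2 lie closer to it relative to their intervals.

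Per transcript length, the order of the levels in controls was Akt1 (246.5 ± 6.25 TPM; SD, n = 4), Igfbp4 (47.4 ± 1.75), Pik3r1 (41.5 ± 1.28), Igf1 (27.1 ± 0.748), Igf2r (25.4 ± 0.518), Insr (9.58 ± 0.281), Foxo1 (5.13 ± 0.246), Irs2 (2.85 ± 0.492), Igf1r (0.647 ± 0.0869) and Irs1 (0.0075 ± 0.0050). No 2 neighbours in that order overlapped between their libraries. Igf1 and Pik3r1 changed places without serine and glycine: Igf1 stood at 35.7 to 39.9 TPM and Pik3r1 at 33.5 to 35.6 TPM, with the lowest Igf1 library barely above the highest Pik3r1 library. The rest of the order was the same in both groups. Insulin receptor transcripts exceeded those of Igf1r in every library, and Irs2 exceeded Irs1. In controls 57.4% of tested genes had a lower TPM than Igf1, 94.7% a lower one than Akt1 and 4.22% a lower one than Igf1r.

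**Figure D3:**
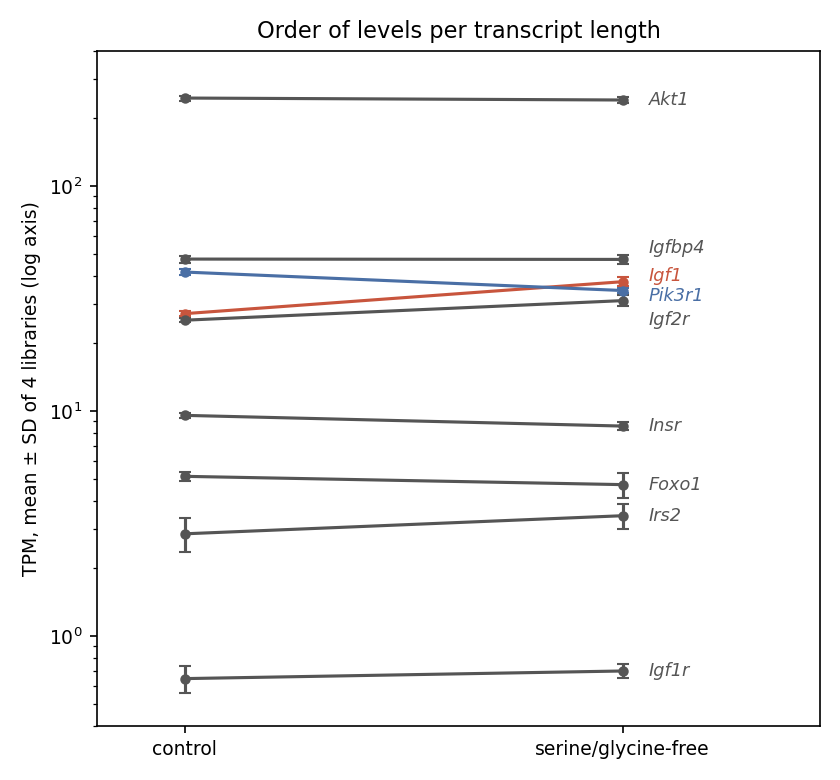
Mean level of 9 of the genes in each group, in TPM on a log axis, with the SD of 4 libraries; Irs1, at most 0.04 TPM, is not drawn. The lines of Igf1 and Pik3r1 cross, and Akt1 stays far above and Igf1r far below the others.

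Around these genes, 94 other genes of the pathway were set out by role, 90 with a row and 73 tested. Of the 73, 10 rose, 30 fell and 33 did not pass, a share called of 54.8% against the 33.2% of all genes. Over all genes tested, 15.9% were higher and 17.3% lower, the shares to set beside the counts of each list below. The median log2 change of the 73 genes was -0.080. These lists were chosen with earlier results of these data known, so the shares are a description only. Of 16 further ligands, binding proteins and their proteases, 3 were tested. The insulin-degrading enzyme Ide fell, from 142 ± 4.88 CPM to 128 ± 2.43 CPM (SD, n = 4; a log2 change of -0.16, adjusted p = 7.2e-05), and Stc2, an inhibitor of the protease that cleaves IGFBP4, fell from 6.90 ± 0.415 to 5.12 ± 0.435 CPM (-0.43, adjusted p = 0.00077). The IGFBP proteases Pappa and Pappa2 had 0 to 2 and 0 to 4 counts per library, below the filter. The third tested gene of this list, the protease Htra1, had 42 to 60 counts per library and did not pass (log2 change 0.069, adjusted p = 0.769). Igf2 had 1 to 6 counts per library. Of the other IGF-binding proteins Igfbp2, Igfbp3, Igfbp5, Igfbp6 and Igfbp7 none exceeded 7 counts in any library. That left Igfbp4 the one such gene above the filter.

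Of 11 tested adaptors and receptor-proximal phosphatases, 0 rose, 6 fell and 5 did not pass. Sos1, an exchange factor that links receptors to RAS, fell the most of them, from 149 ± 7.08 CPM to 98.3 ± 4.27 CPM (SD, n = 4; a log2 change of -0.60, adjusted p = 2.9e-17). Its paralog Sos2 stood at -0.082 (adjusted p = 0.0722). Ptpn1, which encodes the insulin receptor phosphatase PTP1B, fell from 463 ± 3.50 to 387 ± 8.41 CPM (-0.26, adjusted p = 7.8e-12). The SOCS genes, whose proteins bind IRS adaptors and cytokine receptors, fell as well: the log2 change was -0.47 for Socs3 (adjusted p = 9.2e-12) and -0.44 for Socs1 (adjusted p = 0.00013).

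Of the other 9 PI3-kinase subunits and adaptors, 1 rose, 5 fell and 3 did not pass. Pik3cd, the leukocyte catalytic subunit p110 delta, stood at 221 ± 1.23 CPM in controls and at 166 ± 4.96 CPM (SD, n = 4). All genes of the gamma complex in the list fell: the catalytic Pik3cg (log2 change -0.19, adjusted p = 9.9e-08) and its regulators Pik3r5 (-0.17, adjusted p = 1.5e-07) and Pik3r6 (-0.46, adjusted p = 4.8e-11). Pik3cb, the p110 beta subunit, rose from 49.1 ± 2.29 to 60.0 ± 1.83 CPM (0.29, adjusted p = 1.7e-07). Pik3r2 (0.032, adjusted p = 0.624) and Pik3r3 (-0.16, adjusted p = 0.614), the regulatory paralogs of Pik3r1, did not pass. Pik3r3 had 18 to 37 counts per library, and its log2 change lay between -0.33 (without control replicate 3) and -0.020 (without control replicate 1) when 1 library was left out. Pik3ca stood at 0.023 (adjusted p = 0.646), and at 0.084 with the length trend removed (adjusted p = 0.0258). Its estimated counts were not whole in any library, which leaves its level uncertain where reads were shared.

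Of 8 phosphatases that oppose PI3-kinase or AKT, 1 rose, 5 fell and 2 did not pass. Inpp4a (log2 change -0.44, adjusted p = 5.7e-10) and Inpp4b (-0.31, adjusted p = 9.4e-08), which act on the lipid PI(3,4)P2, fell. Phlpp1, an AKT phosphatase, rose from 18.8 ± 1.54 to 24.1 ± 0.515 CPM (SD, n = 4; 0.36, adjusted p = 4.2e-06). Of 15 AKT kinases, activators and substrates other than Akt1, 1 rose, 5 fell and 9 did not pass. Akt2 fell (-0.16, adjusted p = 0.00011), as did the AKT-activating kinase Pdpk1 (-0.16, adjusted p = 0.00038) and the AKT substrate Gsk3b (-0.18, adjusted p = 1.2e-05). After the length correction Pdpk1 stood at -0.093 (adjusted p = 0.0159) and Gsk3b at -0.11 (adjusted p = 0.0025), both still past the threshold. On the RAS-ERK branch, 0 of 9 rose, 2 fell and 7 did not pass, a share of 22.2%. Braf was among those that fell (-0.14, adjusted p = 0.0169). Braf did not pass with serine/glycine-free replicate 3 (adjusted p = 0.0621) or 4 (0.0598) left out, without control replicate 3 (0.0691), on log2(TPM + 1) values (0.123) and after the length correction (-0.052, adjusted p = 0.245).

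Foxo3, a paralog of Foxo1 with the higher TPM of the pair, fell, from 115 ± 2.35 CPM to 92.4 ± 2.77 CPM (SD, n = 4; a log2 change of -0.32, adjusted p = 7.5e-11), and Foxo4 stood at 0.089 (adjusted p = 0.272). Of 16 tested genes known as FOXO targets, 7 rose, 4 fell and 5 did not pass. Il7r, an interleukin receptor subunit, rose from 18.2 ± 0.817 to 37.5 ± 1.46 CPM (1.04, adjusted p = 2.7e-20), while S1pr1, a sphingosine 1-phosphate receptor (0.60, adjusted p = 1.4e-08), and catalase, Cat (0.27, adjusted p = 4.6e-12), rose too. Txnip, which encodes a thioredoxin-binding arrestin, fell (-0.24, adjusted p = 1.7e-10). Members of this list thus moved in both directions. Irs2 and Insr of the 10 genes were also called in opposite directions, but neither call was firm. Of 18 alternatives, Irs2 kept its call under 11 and Insr under 14. Whether FOXO activity changed was not tested.

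**Figure D4:**
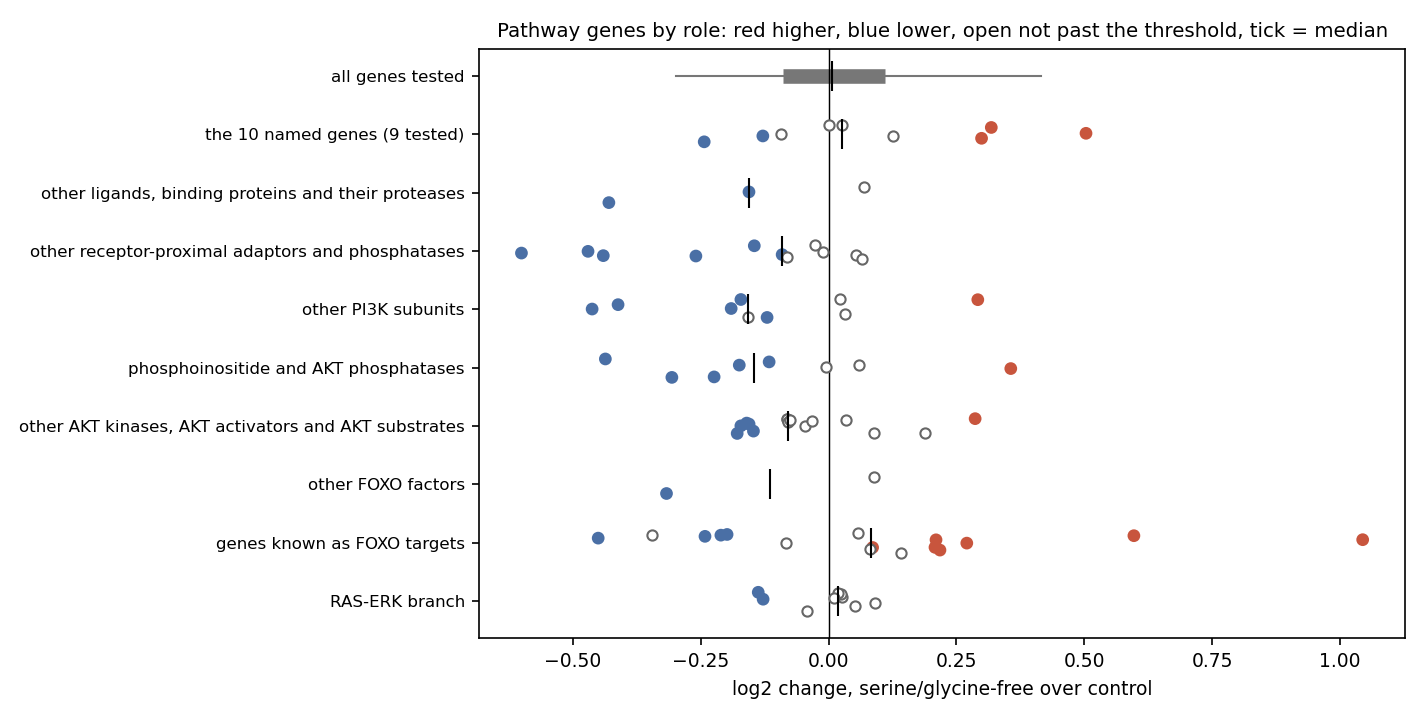
Log2 change, serine/glycine-free over control, of each tested gene by role; filled red points rose, filled blue points fell, open points did not pass an adjusted p of 0.05, and ticks mark medians. The top row gives all genes tested, with the 25th to 75th percentile as a thick and the 5th to 95th as a thin line; blue points outnumber red ones among adaptors, PI3-kinase subunits and phosphatases.

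Because TPM is scaled by length, the share of a gene in the summed TPM of its family could be compared between groups, with an exact two-sided permutation test over libraries. With 4 against 4 libraries the exact permutation test cannot go below p = 0.0286, and over the 6 families the smallest Benjamini-Hochberg adjusted value was 0.0571, so no share passed after adjustment; 5 of the 6 are given here. Pik3r1 made up 61.6% to 63.1% of Pik3r1, Pik3r2 and Pik3r3 in controls and 57.6% to 58.6% without serine and glycine, a difference of -4.47 percentage points in the mean with no overlap (exact permutation p = 0.0286). Pik3cd made up 62.7% to 64.4% of the class IA catalytic genes Pik3ca, Pik3cb and Pik3cd in controls and 52.8% to 56.1% without serine and glycine (-9.20 points, exact permutation p = 0.0286), also with no overlap. Insr made up 92.6% to 94.8% of Insr and Igf1r against 91.9% to 93.1% (exact permutation p = 0.0571). Irs2 took 98.6% or more of Irs1 and Irs2 in every library, and its groups did not overlap (exact permutation p = 0.0286), on the few counts of Irs1. Foxo1 made up 10.2% to 11.6% of Foxo1, Foxo3 and Foxo4 against 10.6% to 13.2%, with the groups overlapping (exact permutation p = 0.429).

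**Figure D5:**
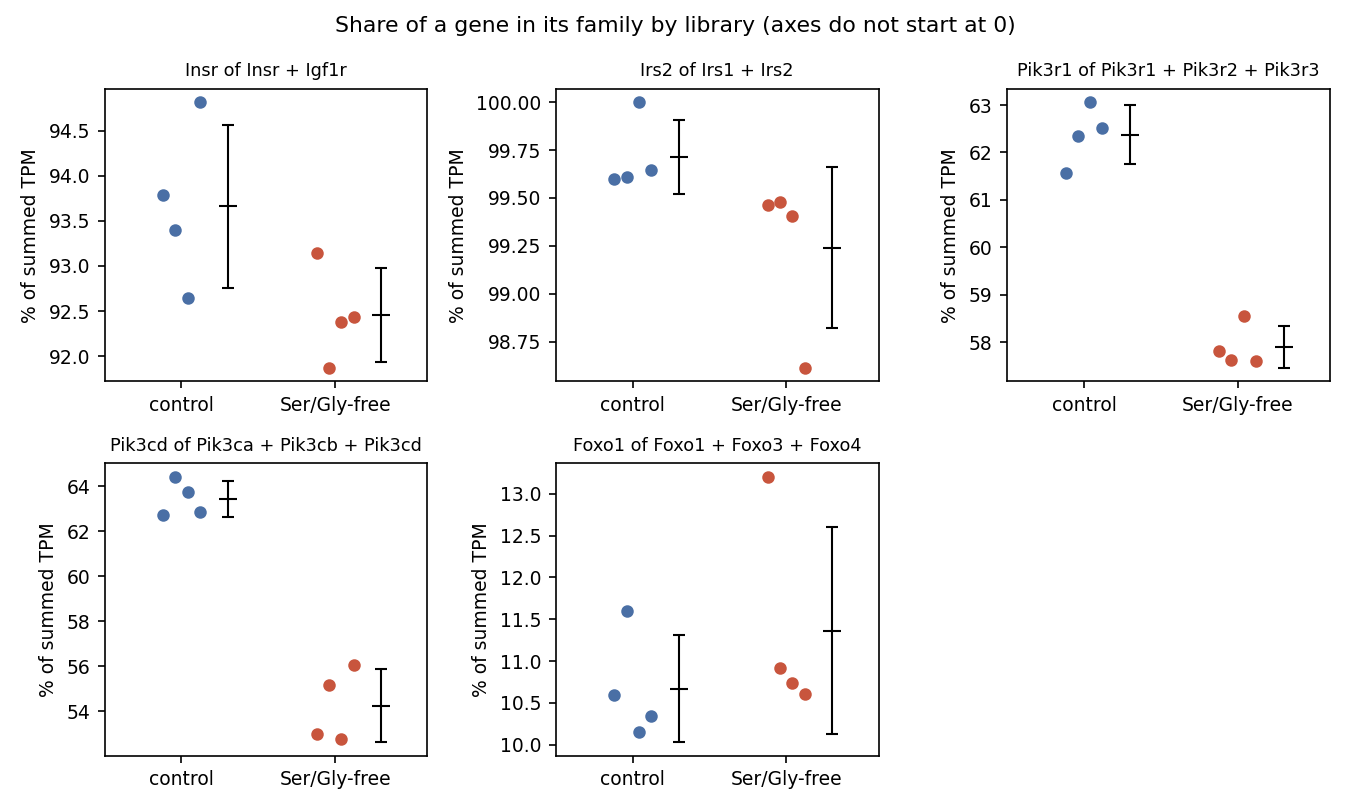
Share of a gene in the summed TPM of its family, in percent, by library (points, blue control, red serine/glycine-free, in replicate order) with the mean ± SD (n = 4); the axes do not start at 0. The groups are apart for Pik3r1, Pik3cd and, narrowly, Irs2, and overlap for Insr and Foxo1.

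The genes whose pattern was most like that of Igf1, by Pearson correlation of log2 CPM over the 8 libraries among genes averaging 5 CPM or more, were Tgif1 (r = 0.998), Lpl (0.995), Sgms1 (0.995), Prdx1 (0.995) and Rgs1 (0.994). Tgif1 encodes a homeobox repressor and Lpl lipoprotein lipase. These values are a description: the libraries fall into 2 groups, so any gene that rose evenly scores high, and 296 of 9552 genes (3.10%) had an r above 0.95. Tgif1 went from 54.0 ± 0.983 to 80.8 ± 3.18 CPM (SD, n = 4; log2 change 0.58) and Lpl from 1645 ± 27.6 to 1891 ± 44.3 CPM (0.20).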

How the data were processed

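The authors deposited 1 table with estimated counts, FPKM and TPM for each of 8 libraries. Per the submitters' processing notes, the tools were BWA, Bowtie2 and RSEM and the build GRCm38.p6; versions, filters and strandedness: not given in the sources used here. Estimated counts, as deposited, were rounded to whole numbers (8.06% to 8.47% of each library's values had a fraction beyond 1e-06). The deposited TPM served for levels and family shares, and the deposited FPKM for transcript lengths. The authors' 6 columns of group means were left out.

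Genes were filtered with edgeR (minimum count 10, minimum total 15), scaled by TMM and tested with edgeR 4.0.16 in R 4.3.3 (robust quasi-likelihood F test, 6 residual degrees of freedom, Benjamini-Hochberg over 11700 genes). CPM values are TMM-scaled; a count of 0 allows up to 3 counts, or 0.165 to 0.172 CPM, for counting error only. The 10 genes, the lists and the motifs were chosen with earlier results of these data known. Named genes are the 10 and up to 4 per list with the smallest adjusted p among those that passed. Paralogs in the 6 families and the 5 genes most like Igf1 were named too. Sos2, S100a8, Cd79b, Pecam1, Igf2, Pappa, Pappa2, Htra1 and the binding proteins were named after their values were seen. Promoter windows are from RefSeq (GRCm38.p6). Alternatives were other scalings and filters, DESeq2 1.42.0, limma 3.58.1 (voom, or log2(TPM + 1)), a loess length correction, a block and left-out libraries. A few genes and 1 family share chosen in this way are not reported here. The fit was tested on simulated counts, where 7.1% of calls were false. Of 67 genes changed 1.2-fold 62.7% were recovered, of 67 changed 1.5-fold 94% and of 66 changed 2-fold 98.5%. Only these genes were changed, out of 11700, while 33.2% of the genes tested passed in the data. Whether the same percentages hold at that proportion was not tested. Smaller changes were not simulated.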

Additional observations from a re-analysis of the deposited data

Results flagged for a closer look

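Of 100 groups of 4 libraries screened for 1 library far from the other 3, 7 were flagged, and chance flags about 1 in 20. The value given is the gap to the nearest library divided by the range of the group. Foxo1 in the serine/glycine-free group was flagged (0.865), with replicate 1 at 16.9 CPM against 13.2 to 13.7 CPM, and so was its share of the FOXO genes (0.880), at 13.2% against 10.6% to 10.9%. Without that library the difference in the share of Foxo1 was 0.080 percentage points, against 0.69 with it, and the log2 change of Foxo1 still did not pass. Pik3cd in controls was flagged (0.883) at 223 CPM against 220.1 to 220.4 CPM, Pik3r5 in controls (0.864) at 749 against 709.7 to 715 CPM, and Inpp4a in the serine/glycine-free group (0.857) at 36.0 against 40.8 to 41.6 CPM. The share of Irs2 was flagged in controls (0.890), at 100% against 99.6%, and in the serine/glycine-free group (0.920), at 98.6% against 99.4% to 99.5%; these are the libraries with 0 and 4 counts of Irs1.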

How the results depend on the processing

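Igf1, Igf2r and Pik3r1 kept their direction and stayed past the threshold under all 18 alternatives, with log2 changes of 0.46 to 0.57, 0.28 to 0.39 and -0.27 to -0.18. Igf1r (17 alternatives, since it falls under a mean of 5 CPM), Igfbp4, Akt1 and Foxo1 stayed short of it throughout. Of the 10 genes, 5 changed; 3 changed on log2(TPM + 1) values, and 3 to 5 when 1 library was left out, the lowest without control replicate 4. Of these, 2 fell; 1 fell with the length trend removed, with or without the block, and on log2(TPM + 1) values, and 1 to 2 when 1 library was left out. Counts over all genes ranged from 3061 (DESeq2) to 3901 (no filter) around 3882, and those of the other pathway genes from 36 to 43 around 40. Same-numbered libraries did not deviate together (r between -0.094 and 0.061, against -0.109 to 0.0785 for the other pairs). No pairing by number was thus seen in these values, which cannot tell whether libraries shared a culture or animal. With the replicate number as a block, 3655 genes and 5 of the 10 passed. Family shares kept their direction and did not pass under CPM or FPKM. The cause of the lost calls was not tested. Irs1, with 0 to 4 counts per library, was too shallow to test.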
